A study of Mus musculus with 6 samples.

Results

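The genes described here make sterols and fatty acids, or control that synthesis, in mouse cells taken through induction toward parvalbumin neurons. They were a fixed list of 31 gene symbols, 22 for sterol synthesis and its control and 9 for fatty acid synthesis, each represented by the probe set that the platform annotation assigns to that symbol alone and that had the highest mean. Of these, 28 were measured among 22180 genes in all, 20 of the sterol and 8 of the fatty acid list. Idi1 and Scd2 lay on probe sets shared with another symbol, and the level of Acat2 was not analysed here. Each of the 28 had 1 probe set and exceeded the floor on low values, log2 5.01, on all 6 arrays.

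The 6 samples, 1 array each, carried a PV-GFP transgene on a C57BL/6 background and were labelled as coming from embryos of 13.5 days. They were embryonic fibroblasts (MEF), fibroblasts at 3, 7 and 14 days of induction toward parvalbumin neurons (iPV), GFP-positive iPV cells sorted at day 14, and a sample whose label reads endogenous PV neurons. Per the labels' protocols, induction was by adenovirus infection, and all 6 samples carry that same description, so the labels do not say whether MEF received a virus or that the endogenous sample did not. What the virus carried, how many embryos were pooled and which tissue the endogenous sample came from were not given in the sources used here.

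Cells make cholesterol from acetyl-CoA through mevalonate, farnesyl diphosphate and squalene, and fatty acids from the same precursor through malonyl-CoA. Both pathways are controlled by the SREBP transcription factors, which are held in the endoplasmic reticulum with their escort SCAP and the INSIG proteins while sterol is plentiful, and are released to activate synthesis genes when sterol is scarce. Neurons and glia make their own cholesterol because that of the blood does not cross into the brain, and dividing cells need both products for new membrane.

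Values are log2 intensities, and a difference is the first array named minus the second. Because each group was a single array, no difference has a replicate check or a p-value, and each describes the 2 arrays compared. A gene was counted at a difference of 2-fold or more. The only error these data allow is a technical spread, the standard deviation of disagreement between the 2 brightest probe sets of the same gene, which lay between 0.27 and 0.50 in log2 units over 327 to 403 genes and leaves out variation between cultures. Labels were checked against markers. Of 10 parvalbumin neuron markers, Gad1, Gad2 and Slc32a1, genes of GABA synthesis and transport, stayed between 4.09 and 5.21 on every array. Pvalb measured 5.23 in MEF, 5.76, 6.15 and 5.80 at days 3, 7 and 14, 6.29 after sorting and 5.48 under the endogenous PV label. Lhx6, Syt2 and Cplx1 lay between 5.02 and 6.16, and Kcnc1, Kcnc2 and Erbb4 under the floor, on all 6 arrays. The fibroblast collagen gene Col1a1 stayed between 11.41 and 12.39 on every array, but not all 12 fibroblast markers were as steady. At day 3 against MEF, 1 of the 12 was past 2-fold higher and 4 lower, where 2.37% and 2.70% of all genes were. Under the endogenous PV label against MEF, 3 were higher and 1 lower, where 3.53% and 1.61% were. Of 10 measured pan-neuronal markers, 6 were past 2-fold higher in sorted cells than in MEF, where 6.04% of all genes were. Under the endogenous PV label that held for 1 of 8. The array labelled endogenous PV is therefore named by its label throughout. Centring the arrays on housekeeping genes changed the share of higher genes among all 2-fold calls from 46.7% to 28.5% for day 3 against MEF, from 71.1% to 57.2% for day 7 against day 3, from 66.8% to 31.8% for day 7 against MEF and from 62.6% to 33.1% for day 14 against MEF. With the endogenous PV label against MEF it went from 68.8% to 38.6%, and with sorted cells against MEF from 69.1% to 41.9%, with 57.7% after quantile normalization. The same centring put the all-gene median, relative to MEF, at -0.22 for day 7, -0.17 for the endogenous PV label, -0.15 for day 14 and -0.14 for both day 3 and sorted cells.

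The promoters of genes past 2-fold at day 7 against day 3 are shown where a searched motif was found, so that the letters can be seen beside the values. RefSeq promoters (GRCm38.p6) were found for 24 of the 31 listed genes, all but Fdps, Fdft1, Sqle, Stard4, Scd1, Scd2 and Fads1, and the 250 bases before each annotated start site were searched on both strands. The motifs were TCACNCCAC, a form of the sterol regulatory element that SREBP binds, CCAAT, bound by the SREBP partner NF-Y, GGGCGG, bound by the partner Sp1, and the E-box CACGTG. Of the 12 genes past 2-fold, 8 had a promoter in the table, and 6 of those held a match of the first, the second or the last motif, while 4 were not searched. In the stretches below, read 5′ to 3′ along the gene, capitals mark these matches, with ATTGG being CCAAT on the other strand, and GGGCGG is left in lower case. They lie at chr13:119690104-119690320, plus strand (Hmgcs1), chr10:76531533-76531557, plus strand (Lss), chr5:4104712-4104736, minus strand (Cyp51), chr8:64733619-64733748, minus strand (Msmo1), chrX:72918402-72918515, plus strand (Nsdhl) and chr5:28071186-28071326, plus strand (Insig1).
Hmgcs1: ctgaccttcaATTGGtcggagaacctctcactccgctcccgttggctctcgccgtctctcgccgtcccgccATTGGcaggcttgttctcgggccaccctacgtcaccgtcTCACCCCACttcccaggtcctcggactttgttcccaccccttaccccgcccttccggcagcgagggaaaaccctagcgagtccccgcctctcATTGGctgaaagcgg
Msmo1: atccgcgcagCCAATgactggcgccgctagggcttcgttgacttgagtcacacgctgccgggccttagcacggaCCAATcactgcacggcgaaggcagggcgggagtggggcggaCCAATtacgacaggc
Nsdhl: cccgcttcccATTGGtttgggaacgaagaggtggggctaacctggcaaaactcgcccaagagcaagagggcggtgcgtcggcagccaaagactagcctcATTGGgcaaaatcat
Insig1: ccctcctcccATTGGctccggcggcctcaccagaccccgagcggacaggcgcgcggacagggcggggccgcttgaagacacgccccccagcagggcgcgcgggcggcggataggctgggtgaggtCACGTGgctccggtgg
Lss: tgatgctctgATTGGccgagctcgc
Cyp51: ctgtccgccaCCAATctggtcctga

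The CCAAT motif was in 19 of the 24 listed genes, 79.2%, against 37.5% of the 27025 genes of the promoter table. It was in 17 of 18 sterol genes and 2 of 6 fatty acid genes, Acss2 and Fasn. GGGCGG was in 20 of 24, 83.3%, against 35.4% of all genes. CACGTG was in 4 of 24, namely Hsd17b7, Sc5d, Dhcr7 and Insig1, or 16.7% against 6.86%. TCACNCCAC was in 1 of 24, Hmgcs1, or 4.17% against 1.22%. The printed Hmgcs1 stretch holds this element between CCAAT matches on either side. Elovl6 and Fads2, the other genes past 2-fold that had a promoter, held no CCAAT match. These shares run over all genes of the promoter table, whether or not they were above the floor on the arrays. A share over genes above the floor was not counted, so the higher shares are not shown to be particular to these pathways. Each motif was counted on its own, so that matches of different motifs may overlap at their ends. A match is a description and not a binding site, and 3 of the 24 genes had several promoters, of which any could match.

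**Figure D1:**
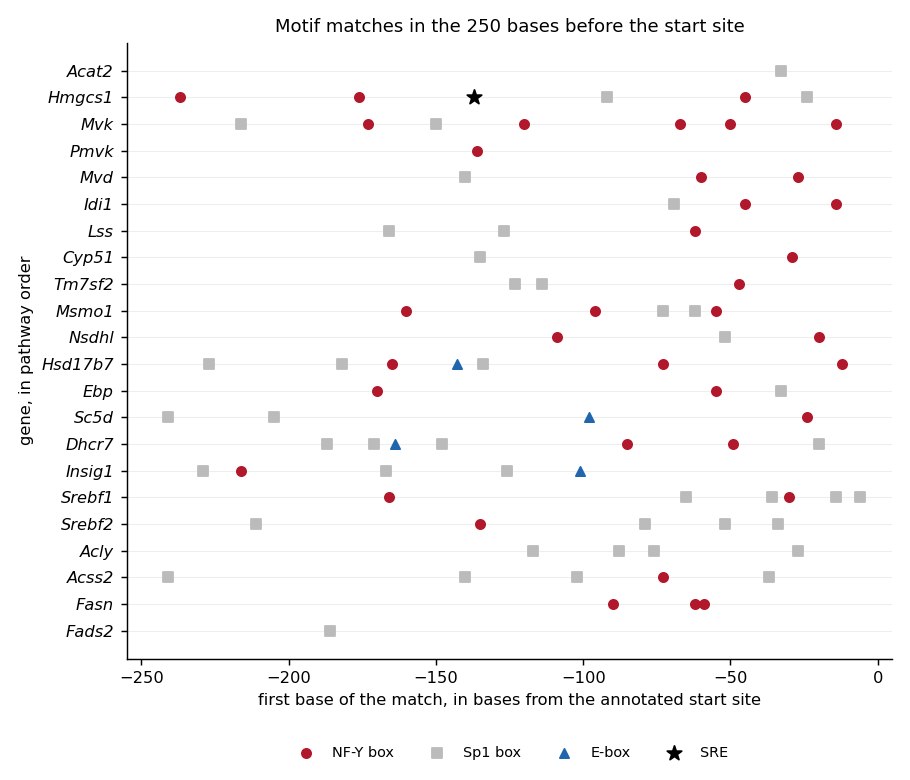
Positions of motif matches (x axis, bases from the annotated start site) for each listed gene with at least 1 match (y axis, pathway order); symbols mark the sterol regulatory element (SRE, TCACNCCAC), NF-Y box, Sp1 box and E-box (CACGTG). The NF-Y box is in 17 of 18 sterol genes, and the only SRE match is in Hmgcs1.

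The day 7 array had the highest value of the 6 for 25 of the 28 genes, 18 of 20 sterol and 7 of 8 fatty acid genes. Over all genes above the floor on some array, day 7 was highest for 11.6%. The exceptions were Ebp, highest on the array labelled endogenous PV, and Srebf1 and Acss2, highest in sorted cells. For the median gene, day 7 exceeded the median of the other 5 arrays by 0.89 among sterol genes and 0.74 among fatty acid genes. Over the other 5 arrays the highest-to-lowest range was 0.50 for the median sterol gene and 0.71 for the median fatty acid gene, the latter about as large as its day 7 contrast. After housekeeping centring day 7 was highest for 20 of the 28 and for 5.45% of all genes.

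**Figure D2:**
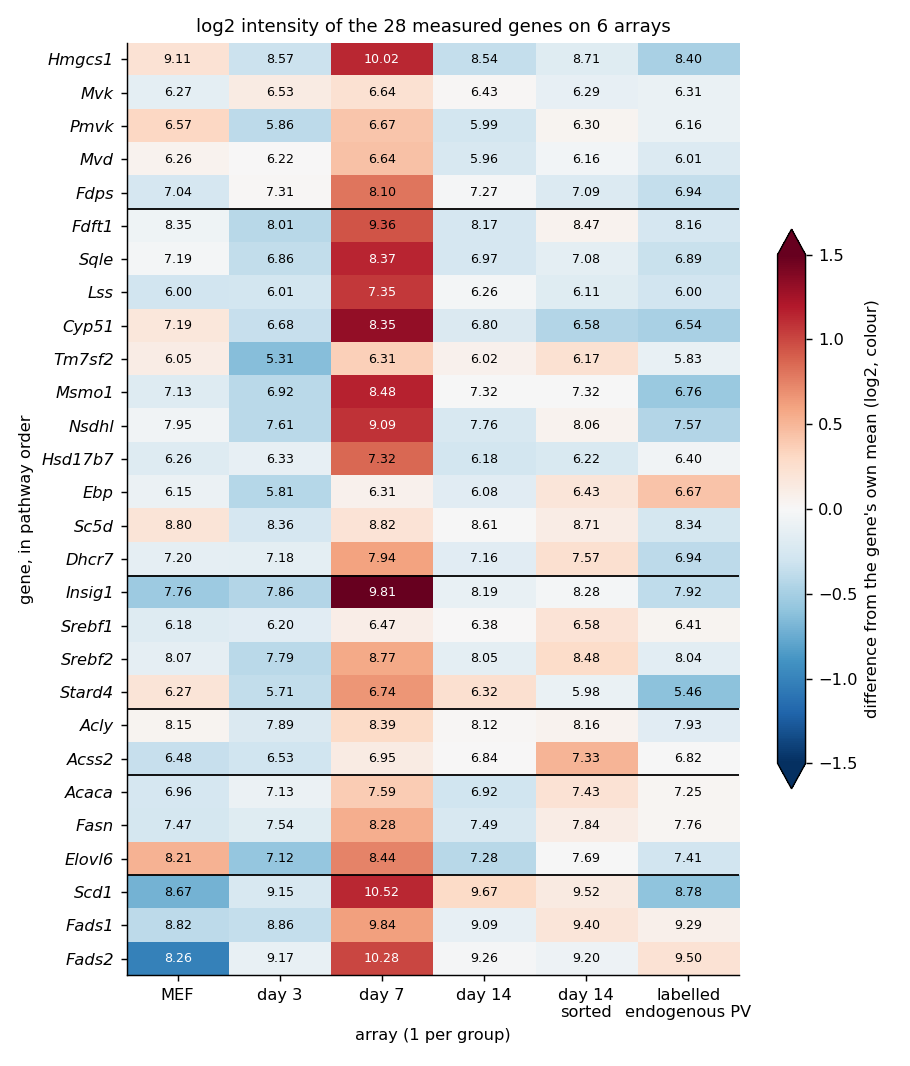
Log2 intensity (printed numbers) of the 28 measured genes (rows, pathway order, lines between steps) on the 6 arrays (columns, 1 per group); colour gives the difference from the gene's own mean. The day 7 column is the highest in 25 rows, with Insig1 at 9.81 against at most 8.28 elsewhere.

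The 5 measured genes of the mevalonate steps were all highest at day 7, by unequal amounts. Hmgcs1, which condenses acetyl units into HMG-CoA, measured 10.02 at day 7, against 9.11 in MEF, 8.57 at day 3, 8.54 at day 14, 8.71 after sorting and 8.40 under the endogenous PV label. MEF was thus the next highest, and the remaining 4 arrays lay close together below it. Fdps, which makes farnesyl diphosphate, measured 8.10 at day 7 and between 6.94 and 7.31 elsewhere. The kinases Mvk and Pmvk and the decarboxylase Mvd differed less. Mvk lay between 6.27 and 6.64 over the 6 arrays, and Mvd between 5.96 and 6.64. Pmvk at 6.67 on day 7 was only 0.10 above MEF, less than the technical spread of that pair, 0.38.

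The steps from squalene to cholesterol held the greatest contrast, with day 7 above the median of the other arrays by 1.19 for the median of 11 genes. Sqle, the squalene epoxidase and a rate-limiting step, measured 8.37 at day 7, against 7.19 in MEF, 6.86 at day 3, 6.97 at day 14, 7.08 after sorting and 6.89 under the endogenous PV label. Cyp51, the lanosterol demethylase, measured 8.35 at day 7, while the others ran from 6.54 under the endogenous PV label to 7.19 in MEF. Lss, the lanosterol synthase, measured 7.35 at day 7 and 6.00 to 6.26 elsewhere. For each of these enzymes day 7 stood above all other arrays by more than 2-fold, and the others overlapped in a narrow band.

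Msmo1, a methylsterol oxidase, and Nsdhl, which acts with it to remove methyl groups, followed the same shape. Msmo1 was 8.48 at day 7 and 6.76 to 7.32 otherwise, and Nsdhl 9.09 and 7.57 to 8.06. Fdft1, the squalene synthase, reached 9.36, with 8.01 at day 3 the lowest and 8.47 in sorted cells the next highest. Hsd17b7, a sterol ketone reductase, reached 7.32 and lay between 6.18 and 6.40 otherwise, the narrowest band of the 20 sterol genes without day 7. Dhcr7, the reductase of the last step, reached 7.94 with sorted cells next at 7.57.

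Late enzymes Sc5d and Ebp and the reductase Tm7sf2 did not share that contrast. Sc5d, a sterol desaturase, measured 8.82 at day 7 and 8.80 in MEF, a gap below the technical spread. Ebp, a sterol isomerase, measured 6.67 under the endogenous PV label, 6.43 after sorting, 6.31 at day 7 and 5.81 at day 3. Tm7sf2 was set apart by a low day 3 value, 5.31, against 5.83 to 6.31 on the other arrays. Across the 6 arrays, the Pearson correlation with the median profile of the other sterol genes was 0.8 or more for 13 of 20 sterol genes, up to 0.99 for Nsdhl and Fdft1, and 0.16 for Ebp, 0.41 for Srebf1 and 0.56 for Mvk. These correlations are descriptions over 6 points that all genes share. The share of all genes that reach 0.8 was not counted, so the 13 of 20 are not shown to be unusual.

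Among genes of control and transport, Insig1, the sterol-sensing retention protein and itself an SREBP target, had the largest contrast of all 28. It measured 9.81 at day 7, against 7.76 in MEF, 7.86 at day 3, 8.19 at day 14, 8.28 after sorting and 7.92 under the endogenous PV label. Srebf2, the SREBP gene that mainly drives sterol synthesis, measured 8.77 at day 7 and 8.48 after sorting, with the other arrays between 7.79 and 8.07. Srebf1, whose products mainly drive fatty acid synthesis, stayed between 6.18 and 6.58, a range of 0.40. Stard4, a soluble sterol carrier, measured 6.74 at day 7, 6.32 at day 14 and 6.27 in MEF, and 5.46 under the endogenous PV label. Srebf1 and Srebf2 are cleaved as proteins to become active, which these arrays do not measure.

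Fatty acid genes had several different patterns. Acly, which makes acetyl-CoA from citrate, stayed between 7.89 and 8.39. Acss2, which makes it from acetate, measured 7.33 after sorting against 6.48 to 6.95 elsewhere. Fasn, the fatty acid synthase, measured 8.28 at day 7 and 7.47 in MEF, with sorted cells between them at 7.84. Acaca, the acetyl-CoA carboxylase, measured 7.59 at day 7 and 7.43 after sorting, and 6.92 at day 14.

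Elovl6, an elongase of saturated chains, had 2 high arrays, 8.44 at day 7 and 8.21 in MEF. It was low at day 3 with 7.12 and at day 14 with 7.28, and between these at 7.69 after sorting and 7.41 under the endogenous PV label. Scd1, the desaturase that makes oleate, measured 10.52 at day 7, 9.67 at day 14, 9.52 after sorting, 9.15 at day 3, 8.78 under the endogenous PV label and 8.67 in MEF. Fads2, the first desaturase of polyunsaturated chains, measured 10.28 at day 7, 9.50 under the endogenous PV label, 9.26 at day 14, 9.20 after sorting, 9.17 at day 3 and 8.26 in MEF. Fads1, which acts after it, measured 9.84 at day 7 and 8.82 in MEF, with the others between 8.86 and 9.40. All 3 desaturases were lowest in MEF, which was the lowest array for 24.8% of all genes.

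At day 3, sterol genes were mostly somewhat lower than in MEF. Of 8 fatty acid genes, 5 lay within the technical spread, a share near the 60.7% of all genes that did. The median difference was -0.30 over 20 sterol genes, with 14 below 0, where 6344 of 13439 genes tested were. It was 0.06 over 8 fatty acid genes, which housekeeping centring turned to -0.12, against 0.02 over all genes. Beyond the technical spread of 0.32, 10 of 20 sterol genes were lower, where 18.2% of all genes were, and 0 were higher, where 21.2% were. Among the lower ones were Tm7sf2 at -0.75, Pmvk at -0.71 and Stard4 at -0.56. Past 2-fold, 0 of the 28 were higher, where 2.37% of all genes tested were, and 1 was lower, Elovl6 at -1.10, where 2.70% were. Fads2 was the highest at 0.90.

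Between days 3 and 7 all 28 differences were above 0, as they were after quantile normalization and after housekeeping centring. Of all genes tested, 6776 of 13443 were above 0 in the deposited values. The technical spread of 0.33 was exceeded by 26 of the 28, where 19.2% of all genes did so upward. Past 2-fold, 12 of 28 were higher, 9 sterol and 3 fatty acid genes, where 2.14% of all genes tested were, and 0 were lower, where 0.870% were. The medians were 0.99 for sterol and 0.86 for fatty acid genes, against 0.00 for all genes. Insig1 differed by 1.95, or 3.87-fold, Cyp51 by 1.67, Msmo1 by 1.56, Sqle by 1.51, Nsdhl by 1.49, Hmgcs1 by 1.45, Fdft1 by 1.35 and Lss by 1.34. Of the fatty acid genes, Scd1 differed by 1.37, Elovl6 by 1.33 and Fads2 by 1.11. Stard4 at 1.03 was just inside the threshold, and Tm7sf2 at 0.999, Hsd17b7 at 0.98, Srebf2 at 0.98 and Fads1 at 0.98 were just outside it. Mvk at 0.11 and Srebf1 at 0.27 were the only 2 within the spread.

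From day 7 to day 14 all 28 differences were below 0, also under both of those scalings. Of all genes tested, 5669 of 13328 were below 0 in the deposited values. The medians were -0.80 for sterol and -0.77 for fatty acid genes, against 0.05 for all genes. Past 2-fold, 11 of 28 were lower, where 1.37% of all genes tested were, and 0 were higher, where 1.01% were. Insig1 differed by -1.62, Cyp51 by -1.54, Hmgcs1 by -1.48, Sqle by -1.40 and Hsd17b7 by -1.14, and of the fatty acid genes Elovl6 by -1.16 and Fads2 by -1.02. This comparison and the one before it share the day 7 array, so that a value particular to that array appears in both with opposite sign.

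**Figure D3:**
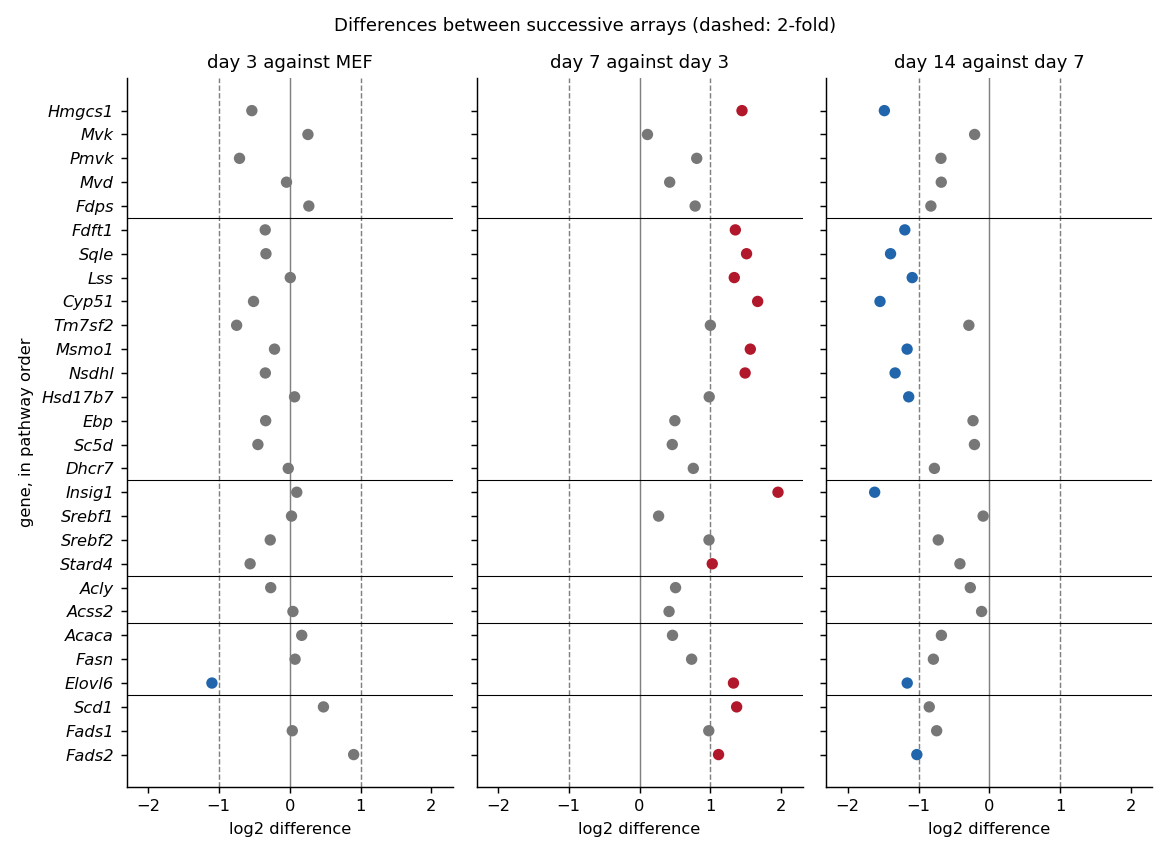
Log2 difference (x axis) of each of the 28 genes (y axis, pathway order) for day 3 against MEF, day 7 against day 3 and day 14 against day 7; dashed lines mark 2-fold, red points are at least 2-fold higher and blue points at least 2-fold lower. Of 28 points, 12 pass 2-fold upward in the middle panel and 11 downward in the right panel.

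Against MEF, day 7 was higher for all 28 genes, and for 22 of them after housekeeping centring, which turned Pmvk, Tm7sf2, Ebp, Sc5d, Acly and Elovl6. Of all genes tested, 7129 of 13466 were higher in the deposited values. This comparison uses the same day 7 array again. The medians were 0.83 for sterol and 0.72 for fatty acid genes, against 0.02 for all genes. Past 2-fold, 12 were higher, where 2.79% of all genes tested were, and 0 were lower, where 1.39% were. Insig1 was 4.15-fold higher, Fads2 4.05-fold and Scd1 3.60-fold, and Msmo1 differed by 1.35, Lss by 1.35, Sqle by 1.18, Cyp51 by 1.16, Nsdhl by 1.15 and Fads1 by 1.01. Housekeeping centring left 5 past 2-fold, Insig1, Fads2, Scd1, Msmo1 and Lss. Within the technical spread of 0.38 lay 8 genes, or 28.6%, beside 68.8% of all genes. The lowest were Sc5d at 0.01, Pmvk at 0.10 and Ebp at 0.16.

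By day 14, 22 of 28 genes lay within the technical spread of MEF, 0.43, with 3 above and 3 below it, and 69.0% of all genes lay within it, so these shares are not far apart. The median difference from MEF was -0.06 for sterol and 0.15 for fatty acid genes, against 0.07 for all genes, and housekeeping centring turned the fatty acid median to -0.10. The sterol median was -0.13 after quantile normalization and -0.30 after housekeeping centring, with 18 of 20 genes below 0 in the latter beside 13 in the deposited values. Past 2-fold, 0 were higher, where 3.47% of all genes were, and 0 lower, where 2.08% were. Scd1 at 0.998 and Fads2 at 0.99 lay just under the threshold. Elovl6 at -0.93, Pmvk at -0.58 and Hmgcs1 at -0.57 were the lowest. After housekeeping centring Elovl6 was at -1.17 and Scd1 and Fads2 were at 0.76 and 0.75.

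Sorting for the reporter went with small differences from unsorted cells of day 14. The medians were 0.13 for 20 sterol genes and 0.33 for 8 fatty acid genes, against 0.02 for all genes and a technical spread of 0.33. Past 2-fold, 0 were higher, where 2.12% of all genes were, and 0 lower, where 1.02% were. Beyond the spread, 7 of 28 were higher, or 25.0%, near the 19.5% of all genes, led by Acaca at 0.51 and Acss2 at 0.50, with Srebf2 at 0.43, and 1 was lower, Stard4 at -0.34. In this pair the median of 10 measured pan-neuronal markers was 0.74, with 3 past 2-fold, and that of 10 macrophage markers -0.43. Their part in the differences of these genes was not tested. Against MEF, sorted cells had 0 genes past 2-fold upward, where 6.04% of all genes were, and 0 downward, where 2.70% were, with Fads2 at 0.93, Scd1 at 0.85 and Acss2 at 0.85 the highest and Cyp51 at -0.61 the lowest. The sterol median of that pair was 0.08, turned to -0.08 by quantile normalization and to -0.18 by housekeeping centring, and the fatty acid median was 0.52, moved to 0.39 and 0.27 by the same alternatives.

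The array labelled endogenous PV had the lowest value of all 6 for 9 of the 20 sterol genes and for 0 of the 8 fatty acid genes, and it was lowest for 14.3% of all genes. In relation to MEF the medians were -0.24 for sterol and 0.29 for fatty acid genes, against 0.04 for all genes, with a technical spread of 0.42. Quantile normalization put them at -0.30 and 0.18, and housekeeping centring at -0.47 and 0.06. Past 2-fold, 1 was higher, Fads2 at 1.23, where 3.53% of all genes were, and 0 lower, where 1.61% were. Stard4 at -0.81, Elovl6 at -0.80, Hmgcs1 at -0.70 and Cyp51 at -0.65 were the lowest, and Ebp at 0.53 the highest sterol gene. Against sorted cells 24 of 28 differences were below 0, where 7572 of 13224 genes tested were. Within the technical spread of that pair, 0.32, lay 18 of the 28, or 64.3%, near the 67.3% of all genes. The medians were -0.25 for sterol and -0.20 for fatty acid genes, beside -0.05 for all genes. Past 2-fold, 0 were higher, where 1.91% of all genes were, and 0 lower, where 2.28% were. Scd1 at -0.74 and Dhcr7 at -0.63 differed most in that pair. There the median of 10 macrophage markers was 1.56, with 8 of them past 2-fold upward, and that of 10 pan-neuronal markers -0.98, and their part in the result was not tested.

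On the 4 arrays other than MEF and day 7, sterol genes did not share 1 direction against MEF. Below MEF on all 4 were 6 of 20, Hmgcs1, Pmvk, Mvd, Sqle, Cyp51 and Sc5d, above it on all 4 were 3, Mvk, Insig1 and Srebf1, and 11 were mixed. Quantile normalization gave 9 below and 2 above, and housekeeping centring 12 below and 0 above. Several of these differences lie within the technical spread, such as those of Sqle at day 14, after sorting and under the endogenous PV label. Of the 8 fatty acid genes, 5 were above MEF on all 4 arrays, with 4 after quantile normalization and 1, Fads2, after housekeeping centring. The share of all genes on 1 side of MEF on all 4 arrays was not counted. Neither the sterol nor the fatty acid counts are therefore shown to be unusual. Scd1, Fads1 and Fads2 were above MEF on all 5 other arrays, by 0.90 at the least for Fads2. Housekeeping centring turned Fads1 at day 3 to -0.14 and Scd1 on the array labelled endogenous PV to -0.12, while Fads2 kept at least 0.68 on each of the 5 arrays.

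**Figure D4:**
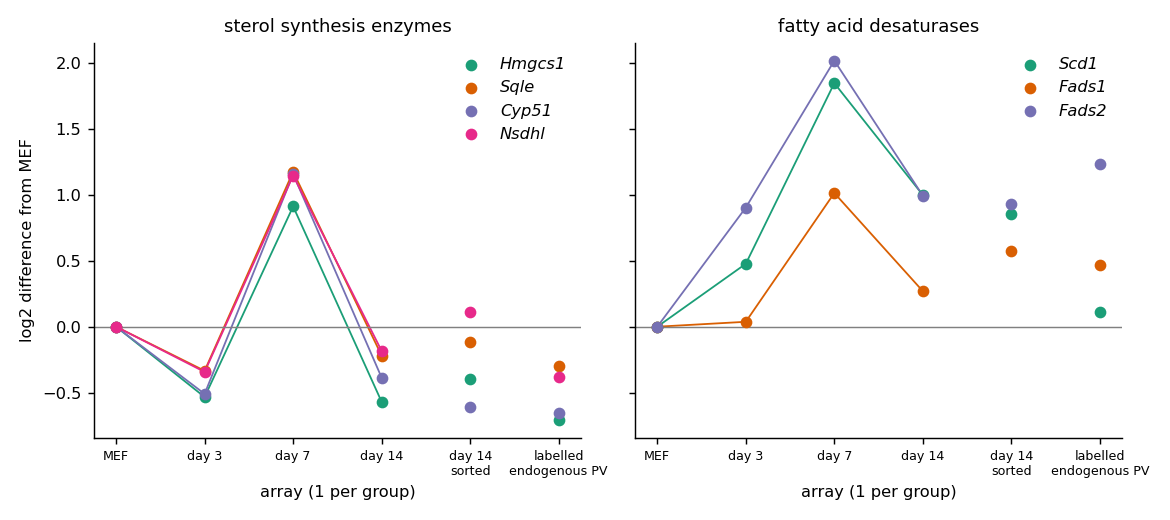
Log2 difference from MEF (y axis) on each array (x axis, 1 per group) for 4 sterol enzymes chosen as examples (left) and 3 desaturases (right); lines join MEF and the unsorted time points. All 7 genes peak at day 7, and Fads2 lies at 0.90 or more on each array other than MEF.

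Other genes of these pathways, from 4 lists that leave out the 31, had smaller median differences between days 3 and 7. Of all genes tested in that pair, 2.14% were past 2-fold higher and 0.870% lower. A count of 0 in such short lists is near those shares. Of 16 measured genes of sterol sensing and uptake, 0 passed 2-fold in either direction between days 3 and 7, with a median of 0.07, and the same held for 11 genes of the LXR pathway and sterol efflux with a median of 0.11. Of 17 measured other genes of fatty acid synthesis and activation 0 passed as well, with a median of 0.13. Among 7 other genes of sterol and isoprenoid synthesis, 0 passed between days 3 and 7, with a median of 0.03. Beyond the spread upward lay 4 of 16, 4 of 11, 6 of 17 and 2 of 7 genes, in the order named. That held for 19.2% of all genes. Lbr, a nuclear envelope protein with sterol reductase activity, measured 8.12 at day 7 and was lower by -1.14 at day 14. It was the only gene of these 4 lists past 2-fold in that pair, where 1.37% of all genes tested were lower.

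Several of these genes stood apart from MEF instead of peaking at day 7. Cyp7b1, an oxysterol hydroxylase, measured 8.47 in MEF and between 10.09 and 10.31 on the other 5 arrays, 3.07-fold to 3.59-fold higher. Scap, the SREBP escort, measured 9.17 after sorting, 8.63 under the endogenous PV label, 8.45 at day 7, 8.40 at day 14, 8.11 at day 3 and 7.40 in MEF, so that sorted cells were 3.42-fold above MEF. Its 2-fold calls at days 7 and 14 were lost after housekeeping centring, at 0.79 and 0.76, and the latter also after quantile normalization, at 0.88. Acsl4, which activates polyunsaturated fatty acids, lay between 8.54 and 9.52 against 8.04 in MEF, and passed 2-fold in each of the 4 induced samples, at day 14 by 1.05, which became 0.95 after quantile normalization and 0.81 after housekeeping centring. Mylip, an LXR target that degrades lipoprotein receptors, was lower than MEF by -1.46 at day 3, -1.04 at day 7 and -1.26 at day 14.

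Others passed 2-fold in fewer comparisons. Ch25h, which makes a hydroxycholesterol and responds to interferon, was higher than MEF by 1.46 at day 7 and by 1.74 on the array labelled endogenous PV. On that array Abca1, the sterol exporter, was higher by 1.02 and its lipid acceptor Apoe by 1.04, calls that were lost after quantile normalization, both at 0.95, and after housekeeping centring, at 0.78 and 0.80. Npc1, which moves sterol out of lysosomes, was higher in sorted than in unsorted cells by 1.06, and Lrp1, a lipoprotein receptor, measured 11.19 in sorted cells and 10.19 in MEF, a call lost under both of these alternatives, at 0.99 and 0.75. Gramd1b, a sterol transporter at membrane contacts, was higher than MEF by 1.40 at day 3 and 1.36 after sorting, and Scarb1, the HDL receptor, was lower by -1.07 at day 3.

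Cell cycle markers were also high at day 7, with a different MEF value. Between days 3 and 7 their median difference was 1.23 over 16 measured genes, with 15 past 2-fold upward, where 2.14% of all genes were. From day 7 to day 14 it was -1.40 with 11 past 2-fold downward, where 1.37% of all genes were. Day 7 was the highest of 6 arrays for 10 of the 16, beside 11.6% of all genes. In day 7 against MEF, the cell cycle median was 0.30 with 1 of 16 past 2-fold upward, beside 0.83 and 9 of 20 for sterol genes. Of all genes, 2.79% were. Housekeeping centring put that sterol median at 0.56 and left only Insig1, Msmo1 and Lss of the sterol genes past 2-fold. The cell cycle list was not summarised after that centring. Interferon markers had a median of 0.01 between days 3 and 7 and 1.14 from day 7 to day 14, over 9 genes. Macrophage markers had a median of 0.63 between days 3 and 7, with 10 of 10 above 0, where 6776 of 13443 genes tested were. Beyond the spread upward were 8, where 19.2% of all genes were, and past 2-fold 2, where 2.14% were. Adipocyte markers had a median of 0.10 between days 3 and 7 over 7 measured genes, with 0 past 2-fold. Within that list Adipoq never exceeded 4.14, below the floor, while Fabp4 measured 8.33 in MEF, 9.30 at day 3, 9.81 at day 7 and 10.30 at day 14. The part of cell division, or of cell mixture, in the day 7 values was not tested, and a larger share of some cells cannot be told apart from more RNA per cell in bulk samples.

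**Figure D5:**
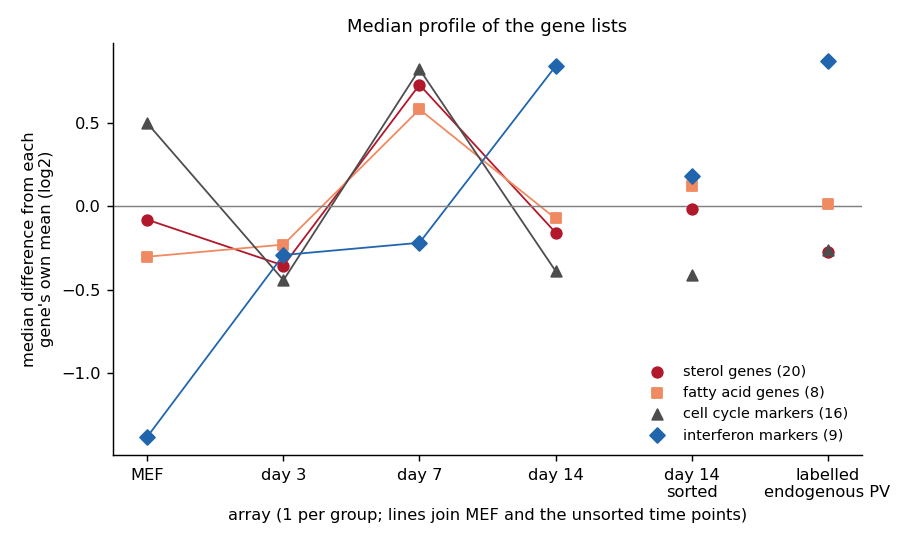
Median difference from each gene's own mean (y axis, log2) on each array (x axis, 1 per group) for 20 sterol genes, 8 fatty acid genes, 16 cell cycle markers and 9 interferon markers; lines join MEF and the unsorted time points. The sterol and cell cycle medians are both highest at day 7, and in MEF the sterol median is -0.08 and the cell cycle median 0.50.

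Profiles over the 6 arrays were correlated with the sterol median for 2532 genes with a range of 2-fold or more. The listed genes and genes with only a predicted or clone-style name were then left out. Of the rest, the 10 that correlated most had r from 0.94 to 0.88. They were Pbk, Rrm2, Ube2c, Chaf1a, Olfr1077-ps1, Cks2, E2f8, Kif18b, Pcna and S1pr1. Rrm2 and Pcna are also on the list of 16 measured cell cycle markers. That list does not hold every gene of cell division, the mitotic kinase Pbk being 1 it leaves out. The 10 were not counted against a wider list. Pbk, a mitotic kinase, measured 7.58 at day 7, 6.52 in MEF and 5.19 at day 3. Rrm2, a subunit of ribonucleotide reductase, measured 7.60 at day 7, 7.01 in MEF and 6.35 to 6.54 elsewhere. S1pr1, a receptor of sphingosine phosphate, measured 7.89 at day 7 and 6.74 to 7.50 elsewhere. These values are a description over 6 arrays, and a gene that is high at day 7 alone scores highly whatever its other values.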

How the data were processed

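Per the labels' protocols, 6 µg of total RNA from each of 6 mouse samples was made into biotin-labelled target for Affymetrix arrays. Values in the table the authors deposited are log2 intensities, a scale inferred from their range, made with Affymetrix Expression Console per the submitters' processing notes. Its version, its summary algorithm and any genome build were not given in the sources used here. The number of arrays limits the precision.

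Of 41345 probe sets, 5333 numbered below the first annotated one were left out. 1 symbol was given for 23521, several for 1814, and 10677 were unnamed here. Each of 22180 genes was represented by its brightest probe set, and values under the median of the probe sets kept, 5.01, were raised to it. A gene was tested, meaning counted in a comparison, if it was above that floor on either array. Calls were differences of 1 or more in log2 units. No p-value was computed. Groups came from the sample labels.

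Named were all listed genes, other pathway genes past 2-fold and the 10 genes most alike, leaving out those with only a predicted or clone-style name. Those of the fatty acid oxidation list stand in the closing observations. Correlations used floored values of genes above the floor on at least 3 arrays. Alternatives were quantile normalization, centring on the median of 14 housekeeping genes, no floor, a floor at percentile 75, the mean of probe sets, and 1.5-fold and 4-fold thresholds. The scripts (Python 3.11.15, pandas 2.3.3, numpy 2.4.6) were tested on simulated data. The genes and lists were chosen with earlier results of these data known, and the motifs after the differences were seen.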

Additional observations from a re-analysis of the deposited data

How the results depend on the processing

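All 50 alternative values of the list medians (5 comparisons, 2 lists, quantile normalization, housekeeping centring, both floors and the mean of probe sets) moved by less than the technical spread of their pair. With a floor at percentile 75 the sterol median was 0.00 both at day 3 (against MEF) and after sorting (against unsorted cells), and -0.01 under the endogenous PV label (against MEF), as many of these genes lie near that floor, log2 6.58. Dropping the floor or taking the mean of probe sets cannot change these 28 genes, each with 1 probe set and above the floor on all 6 arrays. Under these alternatives the agreement of medians, of counts and, without a floor, of day 7 ranks was fixed in advance. Alternative counts stayed within 1.5 times in 107 cases and moved in 19. At 4-fold, 0 genes were left between days 3 and 7, 0 between days 7 and 14, 0 lower at day 3 than in MEF, 0 higher under the endogenous PV label, and 2 higher at day 7 than in MEF. At 1.5-fold, 20 were higher at day 7 than day 3 and 20 lower at day 14 than day 7. That threshold also gave 1 higher and 3 lower for day 3 against MEF, 2 higher and 1 lower for day 14 against MEF, 3 higher and 1 lower for sorted cells against MEF, 4 lower under the endogenous PV label than in MEF and 2 lower than in sorted cells. Housekeeping centring gave 5 higher for day 7 against MEF, 1 lower for day 14 against MEF and 2 lower under the endogenous PV label than in MEF, and quantile normalization 1 lower for day 14 against MEF. Day 7 was highest for 26 genes after quantile normalization, 20 after housekeeping centring, 25 without a floor and 24 with the higher floor, alternatives chosen after the data were seen. No replicate could be left out with 1 array per group.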

Other observations

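Genes of fatty acid oxidation, the breakdown route, had median differences around day 7 that were smaller in size than those of the listed synthesis genes. Between days 3 and 7 the median difference was 0.12 over 17 measured genes. Past 2-fold upward was 1, Echs1, a hydratase of the mitochondrial cycle, at 1.20, where 2.14% of all genes tested were. Beyond the technical spread upward were 5 of the 17, where 19.2% of all genes were. From day 7 to day 14 the median was 0.09 with 0 past 2-fold, where 1.01% of all genes were higher and 1.37% lower. In sorted cells Ppargc1a, a coactivator of mitochondrial genes, measured 6.09 and was at least 2.11-fold higher than in unsorted cells and in MEF, both under the floor, and it differed by -1.07 on the array labelled endogenous PV against sorted cells, or -0.99 after quantile normalization. Acadl, a dehydrogenase of long chains, was lower in sorted cells than in MEF by -1.10.

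Mir33, a microRNA gene that lies within Srebf2, had a probe set of its own with values between 2.22 and 3.12, under the floor on all 6 arrays, while Srebf2 itself lay between 7.79 and 8.77.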
